A study of Mus musculus with 16 samples.

Results

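AML246 cells after 4 days of doxycycline were set against the same cells at day 0, before doxycycline was given. AML246 cells are mouse acute myeloid leukaemia cells, grown here in IMDM with 10% fetal calf serum and interleukin-3 (IL-3), a growth factor of myeloid progenitors. The comparison took the libraries titled Day4 (replicates A and B) and Day0 (replicates A and B) by their titles, which are 4 of the 16 RNA-seq libraries of the series. Doxycycline was given at 0.1 µg/mL from day 0 and withdrawn at day 12, and by the title of the series these steps restore and then knock down PU.1, the transcription factor encoded by Spi1. Day 0 cells had received no doxycycline, and the cells of days 4, 8 and 12 had received it for that many days; the cells of these 4 groups were sorted as total viable cells. The 2 libraries each of day 8 and day 12 were used to see where the state at day 4 differed from later days of the same treatment. The labels do not describe the construct through which doxycycline acts on Spi1, and no group had doxycycline without a change of Spi1, so effects of the drug and of PU.1 cannot be told apart. The labels also do not say whether A and B were separate cultures, and the spread behind each p-value is that of libraries and may be technical.

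PU.1 is an ETS-family factor that binds purine-rich DNA around a GGAA core and is needed for the formation of macrophages, granulocytes and B cells. In myeloid progenitors it switches on genes of phagocytes such as integrin chains, lysozyme and the subunits of the NADPH oxidase, and it opposes GATA factors, which drive the erythroid, megakaryocytic, mast cell and eosinophil programmes. Low PU.1 activity keeps myeloid progenitors immature and is a known route to acute myeloid leukaemia.

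The upstream sequences of 5 textbook PU.1 targets are shown because their genes differed between day 0 and day 4. The choice of genes rested on values already seen. Itgam, Ncf1 and Ptprc had the lowest p-values of that list and rose, and of the others shown Lyz2 rose and Mpo fell. Each sequence is the 250 bases before the start site from the RefSeq table of build GRCm38.p6, 5′ to 3′ on the gene's strand, and capitals mark each match to GAGGAA, the purine-rich PU.1 core, or to its reverse complement TTCCTC.
Itgam (chr7:128062390-128062639, plus strand): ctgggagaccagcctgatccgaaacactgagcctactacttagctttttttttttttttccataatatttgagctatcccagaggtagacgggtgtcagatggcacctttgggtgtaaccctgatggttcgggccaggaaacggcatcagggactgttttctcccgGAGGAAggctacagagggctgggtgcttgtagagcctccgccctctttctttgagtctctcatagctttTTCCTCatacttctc
Ncf1 (chr5:134229626-134229875, minus strand): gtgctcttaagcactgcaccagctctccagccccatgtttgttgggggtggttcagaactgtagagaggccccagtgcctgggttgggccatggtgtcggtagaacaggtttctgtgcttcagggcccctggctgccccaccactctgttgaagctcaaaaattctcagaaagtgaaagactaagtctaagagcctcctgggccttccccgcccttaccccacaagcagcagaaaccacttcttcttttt
Ptprc (chr1:138175306-138175555, minus strand): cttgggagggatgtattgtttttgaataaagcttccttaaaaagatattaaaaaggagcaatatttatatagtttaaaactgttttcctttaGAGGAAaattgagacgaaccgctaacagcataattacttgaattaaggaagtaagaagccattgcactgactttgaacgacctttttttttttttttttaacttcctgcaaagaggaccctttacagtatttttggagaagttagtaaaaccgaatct
Lyz2 (chr10:117282273-117282522, minus strand): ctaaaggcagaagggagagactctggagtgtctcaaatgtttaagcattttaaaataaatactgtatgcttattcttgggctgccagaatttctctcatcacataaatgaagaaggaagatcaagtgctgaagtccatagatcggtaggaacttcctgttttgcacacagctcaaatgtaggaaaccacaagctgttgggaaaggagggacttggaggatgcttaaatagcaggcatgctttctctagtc
Mpo (chr11:87793534-87793783, plus strand): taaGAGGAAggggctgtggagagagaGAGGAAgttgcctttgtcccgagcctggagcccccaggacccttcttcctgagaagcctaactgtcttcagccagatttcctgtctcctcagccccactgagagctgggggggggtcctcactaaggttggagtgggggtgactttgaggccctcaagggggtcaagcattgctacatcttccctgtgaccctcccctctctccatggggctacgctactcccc
Itgam held a match 84 bases before its start site on the gene's strand and another 15 bases before it on the opposite strand. Ptprc held a match 158 bases before the start site, and Mpo held matches 247 and 224 bases before it. Ncf1 and Lyz2 held no such letters in this window. The motif stood in 6252 of 27025 upstream windows of the table (23.13%), in 750 of 3053 windows of genes that rose at day 4 (24.57%), in 662 of 3100 of genes that fell (21.35%) and in 900 of 4104 of genes that were not called (21.93%). Of 16 textbook PU.1 targets with a window, 9 held it (56.25%). These matches describe letters and not binding, which was not measured.

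Gene levels are in CPM, the gene's counts for each 1000000 counts of the TMM-scaled library total, given for replicate A and then B, and a gene was called at an edgeR adjusted p under 0.05. SE is the size of a log2 fold divided by the square root of its edgeR F statistic. For genes with few reads on a day it can understate the uncertainty of the fold. Totals were 18011837 and 12962801 counts at day 0 and 24742317 and 24355770 at day 4, over 13652 genes. The 2 libraries of a day lay close together on a log2 scale with a constant added to each CPM. On that scale 38 genes differed over 2-fold between A and B at day 0 and 7 at day 4, against 2420 between the means of the days. The constant shrinks differences of genes with low levels, so these are not counts of 2-fold differences in CPM. The share of mitochondrially encoded genes was 7.36% and 6.35% in the day 0 libraries but 2.66% and 2.63% in those of day 4. With these 15 genes left out of the counts, 8125 genes were called.

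Most measured genes differed after 4 days. The test called 8082 genes (59.2%), of which 3846 rose (28.2% of all genes) and 4236 fell (31%). Over 2-fold changes were called in 1485 genes that rose (10.9%) and 1848 that fell (13.5%), and over 16-fold changes in 119 and 91. The median log2 fold of all genes was -0.05, with quartiles at -0.60 and 0.50. The libraries of the days did not overlap in 8080 of the 8082 called genes, which include each called gene named below. They also did not overlap in 11074 of all genes, called or not (81.12%), so a lack of overlap alone is weak evidence of a change. It was also a condition for naming the largest rises and falls. With 1 library left out, 6531 to 7228 genes were called, and none of the calls shared with the full fit changed direction.

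**Figure D1:**
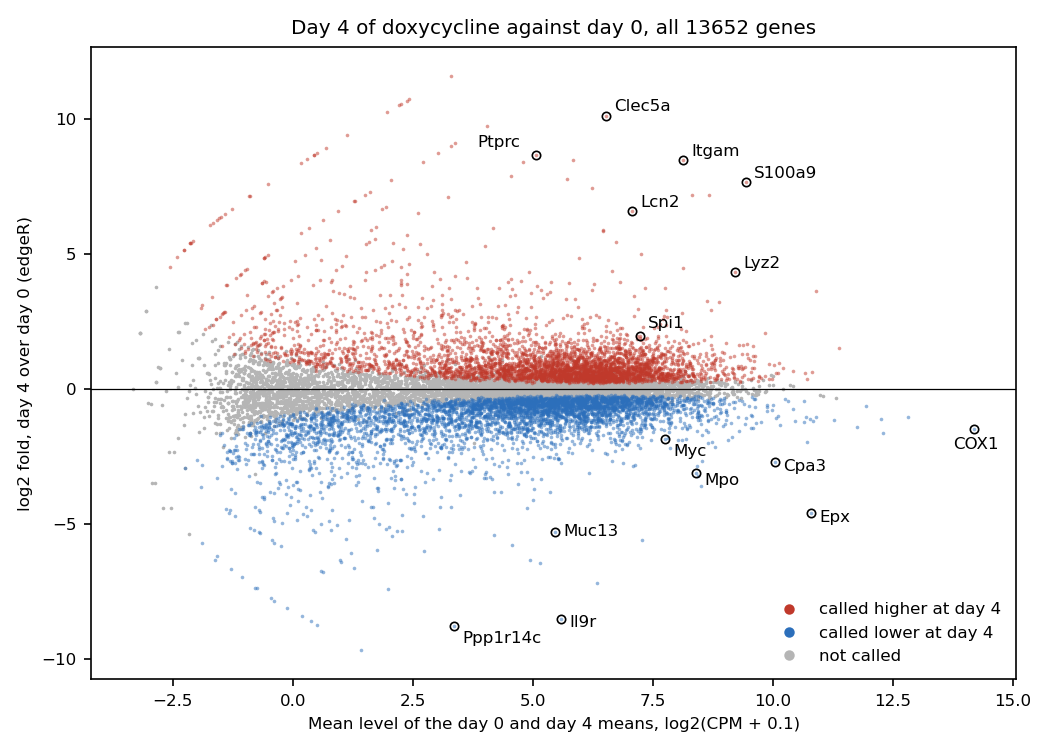
Log2 fold of day 4 over day 0 (vertical axis) against the mean level of the day 0 and day 4 means as log2(CPM + 0.1) (horizontal axis) for 13652 genes, with the 3846 genes called higher in red, the 4236 called lower in blue and the others in grey. Clec5a, Itgam and S100a9 stand far above the line at 0, and Il9r, Ppp1r14c and Epx far below it.

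Spi1, which encodes PU.1 (chromosome 2, 91082374 to 91115759, GRCm38), stood at 66.3 and 56.8 CPM at day 0 and 229 and 248 CPM at day 4. Both day 4 libraries lay above both day 0 libraries, and the rise was 3.87-fold (log2 fold 1.95, SE 0.15, edgeR adjusted p = 6.8e-08). It then stayed near that level, at 186 and 208 CPM at day 8 and 226 and 219 CPM at day 12, and neither day was called against day 4 (edgeR adjusted p = 0.24 and 0.64). Spib, which encodes the related ETS factor Spi-B, was at 1.58 and 1.62 CPM at day 0 and 0.23 and 0.323 CPM at day 4 and fell (log2 fold -2.51, SE 0.45, edgeR adjusted p = 0.00021). Itgam encodes the integrin chain Cd11b of mature myeloid cells (chromosome 7, 128062640 to 128118491, GRCm38) and stood at 1.41 and 1.77 CPM at day 0 and 494 and 624 CPM at day 4. From a low level in both day 0 libraries it rose 354-fold (log2 fold 8.47, SE 0.25, edgeR adjusted p = 3.6e-12). It stood at 560.4 and 581 CPM at day 8 and 719.5 and 669.5 CPM at day 12 and was called on neither day against day 4 (edgeR adjusted p = 0.93 and 0.15).

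Of the called genes whose mean reached 10 CPM, those with the largest rises included receptors and adaptors of phagocytes. Clec5a, a lectin receptor that signals through the adaptor Tyrobp, went from 0.163 and 0.147 to 185 and 180 CPM (log2 fold 10.13, SE 0.22, edgeR adjusted p = 2.6e-13). Ptprc, which encodes the leukocyte antigen CD45, went from 0.163 and 0.147 to 63.4 and 69.8 CPM (log2 fold 8.68, SE 0.25). Cd300lf, an inhibitory receptor of myeloid cells, went from 0.163 and 0.147 to 59.7 and 49.9 CPM (log2 fold 8.40). Each of these 3 genes had 5 reads in all at day 0, so the SE values of Clec5a and Ptprc understate the uncertainty of their folds. Gapt, an adaptor protein of haematopoietic cells, went from 0.707 and 0.147 to 102 and 106 CPM (log2 fold 7.78), and Igsf6, an immunoglobulin superfamily receptor of myeloid cells, from 0.544 and 1.25 to 154 and 143 CPM (log2 fold 7.43). Bst1, a surface enzyme of the CD38 family, had 1 read over both day 0 libraries and 1662 over both day 4 libraries, a ratio of 1045 with an exact 95% counting interval from 187 to 41288. Cstdc4 and Cstdc5 belong to the stefin A family of cysteine protease inhibitors, whose members are near-identical copies, so the split of reads between them is uncertain. Cstdc4 went from 0.163 and 0.516 to 133 and 96.1 CPM and Cstdc5 from 3.21 and 5.61 to 735 and 537 CPM. For each gene of this paragraph both day 4 libraries stood far above both day 0 libraries, with edgeR adjusted p of at most 3.14e-09.

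The largest falls among genes with that mean were in genes of several kinds. Il9r, which encodes the receptor of interleukin-9, a cytokine of mast cells and T cells, went from 114 and 76.9 to 0.307 and 0.202 CPM (log2 fold -8.51, SE 0.41, edgeR adjusted p = 8.7e-10). Ptpru, a receptor tyrosine phosphatase, went from 311 and 299.5 to 6.07 and 6.65 CPM (log2 fold -5.58). Muc13, a transmembrane mucin, went from 88.9 and 82.2 to 1.69 and 2.66 CPM (log2 fold -5.30). In these 3 genes both day 4 libraries lay far below both day 0 libraries. Ppp1r14c, an inhibitor subunit of protein phosphatase 1, had 647 reads over both day 0 libraries and 2 over both day 4 libraries, a ratio of 515 with an exact 95% counting interval from 142 to 4259 for day 0 over day 4. Dmwd, a WD-repeat protein gene, went from 72.2 and 67.2 to 0.768 and 0.807 CPM (log2 fold -6.46), Plch2, a phospholipase C, from 77.3 and 43.5 to 0.768 and 0.726 CPM (log2 fold -6.33), and Trpv4, a cation channel, from 58.4 and 53.7 to 2.34 and 2.9 CPM (log2 fold -4.42). Kis2 went from 44.9 and 47.7 to 1.07 and 0.565 CPM (log2 fold -5.80). The means of these 8 genes at day 8 and at day 12 were at most 7.46 CPM, that of Ptpru at day 8, and Il9r had 0.676 and 0.446 CPM at day 8 and 0.73 and 0.839 CPM at day 12. The other large falls, Epx, Ear1, Rnase12 and Cd55, were followed by a rise at later days and are described with their groups.

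Transcription factors of blood cells moved in both directions. Of 39 measured members of that list, 13 rose (33.3%, beside 28.2% of all genes) and 14 fell (35.9%, beside 31%). These shares are near those of all genes, and the counts of each list below are to be read beside the same 28.2% and 31%. The median log2 fold was -0.14, or -0.22 without day 4 replicate B (beside -0.05 over all genes). The largest rise was that of Irf5, a factor of inflammatory gene expression in macrophages, from 0.163 and 0.443 to 3.84 and 4.28 CPM (log2 fold 3.81, SE 0.38, edgeR adjusted p = 7.8e-07). Klf2, a Krüppel-like factor, went from 1.79 and 2.8 to 14.7 and 14.2 CPM (log2 fold 2.67), and Irf7, a factor of the interferon response, from 6.79 and 6.49 to 26.2 and 24.3 CPM (log2 fold 1.92). Rxra, a nuclear receptor, rose from 8.64 and 6.79 to 24.4 and 29 CPM (log2 fold 1.78), and Batf3, a factor of dendritic cells, from a level below 1 CPM (log2 fold 1.88). Ikzf1, Id2, Fli1, Cebpd, Stat5b, Runx3 and Runx1 rose by less than 2-fold (log2 fold 0.99, 0.87, 0.80, 0.59, 0.54, 0.45 and 0.30). Runx1 lost its call without day 4 replicate B or without either day 0 library, Runx3 without day 0 replicate B, and Batf3 without day 4 replicate A or day 0 replicate B and with DESeq2 (log2 fold 2.90 without day 0 replicate A). The myeloid factors Cebpa, Cebpb and Cebpe were not called: Cebpe stood at 601 and 572 CPM at day 0 and 566 and 519.7 CPM at day 4, and Cebpa at 56.5 and 111 CPM at day 0 and 63 and 74.9 CPM at day 4, where day 0 replicate B alone was high and a fall was called without replicate A (log2 fold -0.68). Irf8, Klf4, Hoxa9 and Meis1 were not analysed here.

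GATA factors and immediate-early factors were among those that fell. Gata1, the factor of erythroid, megakaryocytic and eosinophil cells, went from 59.5 and 29.1 to 6.14 and 7.02 CPM (log2 fold -2.76, SE 0.26, edgeR adjusted p = 5.6e-07). Gata2, a factor of progenitors and mast cells, went from 608 and 417 to 207 and 214 CPM (log2 fold -1.28), and Zfpm1, the partner of GATA factors known as FOG-1, from 129.5 and 94.2 to 65.4 and 74.2 CPM (log2 fold -0.68). Gata1 and Gata2 were higher in replicate A than in B at day 0, and both day 4 libraries were below either. Egr1, Fos and Junb encode factors that are induced within minutes of a stimulus. Egr1 went from 35.1 and 22.2 to 3.76 and 2.74 CPM (log2 fold -3.14, SE 0.34, edgeR adjusted p = 4.1e-06), Fos from 52.7 and 108 to 15.4 and 10.7 CPM (log2 fold -2.61) and Junb from 199.5 and 179 to 41.3 and 40.3 CPM (log2 fold -2.21). All 3 rose again at day 8, to 45.3 and 79.1 CPM for Egr1, 196 and 317 CPM for Fos and 162 and 185 CPM for Junb. Myb, a factor of immature progenitors, fell from 1167 and 1250.1 to 692 and 681 CPM (log2 fold -0.82), Gfi1, a repressor of granulocytic cells, from 368 and 408 to 206 and 190.5 CPM (log2 fold -0.97), and Stat5a, which carries the IL-3 signal, from 81.7 and 79.4 to 38.7 and 43.8 CPM (log2 fold -0.96). Klf1, Jun and Runx2 fell too, with log2 folds of -1.93, -0.84 and -0.53. Without day 0 replicate A the log2 fold of Zfpm1 was -0.43, Fos lost its call with the 4 libraries alone (edgeR adjusted p = 0.0502), and Runx2 without either day 4 library or without day 0 replicate B.

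**Figure D2:**
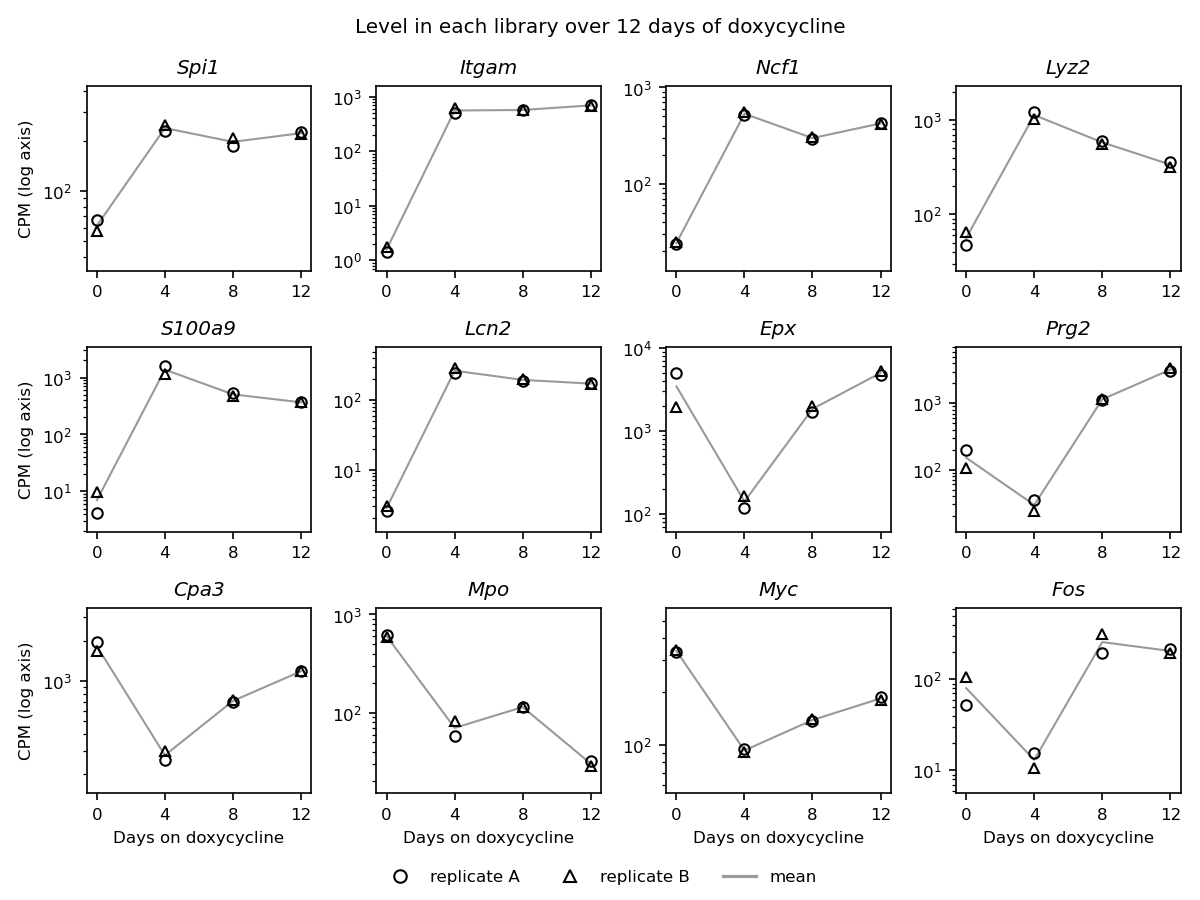
CPM on a log axis against days on doxycycline for 12 genes, with replicate A as circles, replicate B as triangles and a line through the means of each pair. Spi1 and Itgam rose by day 4 and stayed high, Epx, Prg2 and Cpa3 fell at day 4 and rose again, and S100a9 and Lyz2 were highest at day 4 of the 4 days shown.

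Receptors for cytokines mostly rose. Of 26 measured members, 15 rose and 4 fell (median log2 fold 0.72). Csf1r, the receptor of the macrophage growth factor, went from 1.36 and 0.664 to 18.3 and 20.8 CPM (log2 fold 4.21, SE 0.27, edgeR adjusted p = 8.6e-09). Il1r2, a decoy receptor for interleukin-1, went from 1.36 and 1.33 to 23.5 and 23.1 CPM (log2 fold 4.11), and Il6ra, the interleukin-6 receptor chain, from 0.272 and 0.295 to 6.95 and 6.41 CPM (log2 fold 4.54). Tnfrsf1a, a receptor of tumour necrosis factor, rose from 53.5 and 70.3 to 206 and 243 CPM (log2 fold 1.86). Csf2rb encodes the shared beta chain of the receptors for IL-3, GM-CSF and interleukin-5, and Csf2rb2 its near copy that serves IL-3 alone, so reads may be split between them. Csf2rb went from 525 and 408 to 1019 and 1133 CPM (log2 fold 1.21) and Csf2rb2 from 192 and 112 to 426 and 481 CPM (log2 fold 1.58). The ligand-binding chain Il3ra stood at 40.2 and 35.3 CPM at day 0 and 27.3 and 31.8 CPM at day 4 and was not called (edgeR adjusted p = 0.066) except with the 4 libraries alone (log2 fold -0.32). Besides Il9r, the receptors that fell were Epor, the erythropoietin receptor, from 14.3 and 7.01 to 0.691 and 1.05 CPM (log2 fold -3.63), Il1rl1, the interleukin-33 receptor of mast cells and eosinophils, from 161 and 96.7 to 14.4 and 15.6 CPM (log2 fold -3.11), and Ifngr1, a chain of the interferon-gamma receptor, from 964 and 1054 to 502 and 513 CPM (log2 fold -0.99). Its partner chain Ifngr2 moved the other way, from 20.6 and 18.1 to 44.6 and 47.1 CPM (log2 fold 1.24). Kit, the stem cell factor receptor, stood at 118 and 131 CPM at day 0 and 132 and 181 CPM at day 4 and was called higher without day 4 replicate A (log2 fold 0.60) and with the 4 libraries alone (0.37) but not in the full fit.

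Genes of JAK-STAT signalling and its feedback rose in 12 of 17 members, with a median log2 fold of 0.62. Cish, an inhibitor induced by STAT5, went from 38.8 and 30.8 to 137 and 134 CPM (log2 fold 1.96, SE 0.13, edgeR adjusted p = 9.2e-09). Jak1, a receptor kinase, went from 116 and 108 to 344 and 418 CPM (log2 fold 1.77). In both genes the day 4 libraries stood over 2-fold above the day 0 libraries. The other members, Socs1, Socs2, Osm, Jak3 and Pim2, were not called (log2 fold -0.32, 0.18, 0.01, 0.24 and 0.27). Socs1 was called lower without day 0 replicate B (-0.60), Socs2 higher without day 0 replicate A (0.46), and Jak3 higher with DESeq2 (0.28) or without the mitochondrially encoded genes (0.29).

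Of 22 textbook PU.1 targets with a row, 17 rose and 2 fell (median log2 fold 1.67). Ncf1, the organiser subunit p47phox of the NADPH oxidase, went from 23.4 and 24.9 to 513 and 553 CPM (log2 fold 4.47, SE 0.11, edgeR adjusted p = 5.5e-13). Lyz2, the lysozyme of macrophages and neutrophils, went from 47.5 and 64.7 to 1219 and 1037 CPM (log2 fold 4.33). The members that fell were Mpo and Spib. Mpo, the peroxidase of azurophil granules, which form at the promyelocyte stage, went from 617 and 586 to 57.8 and 82.3 CPM (log2 fold -3.10, SE 0.19, edgeR adjusted p = 4.4e-09). Cebpa, Cd68 and Fcer1g were not called, and Cd68, a lysosomal protein of macrophages, stood at 6.09 and 6.05 CPM at day 0 and 5.99 and 6.57 CPM at day 4.

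Granulocyte genes split by cell type and by granule. All 17 measured neutrophil secondary granule and maturation genes rose in the full fit, with a median log2 fold of 5.40, or 4.40 when the 2 members with 0 reads at day 0 are set to the lowest fold that 3 reads allow. The median was 5.24 without day 4 replicate B and 6.46 without day 0 replicate A. In the latter setting not every member kept its call, and Retnlg was among those that lost it. S100a9 and S100a8 encode the subunits of calprotectin, the main cytosolic protein of neutrophils. S100a9 went from 4.19 and 9.81 to 1586 and 1170 CPM (log2 fold 7.66, SE 0.32, edgeR adjusted p = 3.5e-10) and S100a8 from 3.81 and 7.67 to 928 and 697 CPM (log2 fold 7.18). Lcn2, the iron-binding granule protein lipocalin-2, went from 2.56 and 3.02 to 246 and 286 CPM (log2 fold 6.59, SE 0.20, edgeR adjusted p = 4.7e-12). Camp, the cathelicidin of secondary granules, went from 0.0544 and 0.369 to 55 and 37.9 CPM (log2 fold 7.89). In each of these genes the 4 libraries fell into a low pair at day 0 and a high pair at day 4. Ngp, another secondary granule protein, had 1 read over both day 0 libraries and 1052 over both day 4 libraries, a ratio of 661 with an exact 95% counting interval from 118 to 26143. Stfa2, of the stefin family whose copies share reads, had 1 read over both day 0 libraries and 991 over both day 4 libraries, a ratio of 623 with an exact 95% counting interval from 112 to 24629. Olfm4, a granule protein of a subset of neutrophils, rose from an already high level, from 185 and 376 to 3414 and 3609 CPM (log2 fold 3.65). Padi4, which citrullinates histones in neutrophils, went from 22.4 and 21.8 to 59.6 and 59 CPM (log2 fold 1.43), and Csf3r, the receptor of the neutrophil growth factor G-CSF, from 129.9 and 139 to 224 and 212 CPM (log2 fold 0.70). The summed level of the list was 418 and 641 CPM at day 0 and 6689 and 6255 CPM at day 4. In bulk RNA, fewer or more cells of a type and a different amount of RNA per cell cannot be told apart.

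Azurophil granule genes did not move together. Of 10 members 5 rose and 4 fell (median log2 fold 0.32). Without day 0 replicate A the number that rose was 3 and the median 0.086, and without day 0 replicate B the median was 0.60. Beside Mpo, the protease cathepsin G (Ctsg) fell, from 191 and 256 to 81.8 and 79.2 CPM (log2 fold -1.47). Elane, the neutrophil elastase, rose by a small amount, from 61.6 and 97.4 to 114 and 122 CPM (log2 fold 0.58, SE 0.18, edgeR adjusted p = 0.013), and lost its call without day 0 replicate A (log2 fold 0.28) or day 4 replicate B (0.57), with 0.94 without day 0 replicate B. Ms4a3, a membrane protein of granulocyte and monocyte progenitors, had 2 reads over both day 0 libraries and 379 over both day 4 libraries, a ratio of 119 with an exact 95% counting interval from 32.7 to 987. Prtn3, Ctsc and Prss57 rose (log2 fold 0.79, 0.63 and 0.46), and Rab44 and Cst7 fell (-0.63 and -0.51); these 5 were named after their values were seen. Prss57 lost its call without day 0 replicate A (log2 fold 0.23, and 0.72 without day 0 replicate B) and Rab44 without day 4 replicate B (-0.41).

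Eosinophil markers fell at day 4 in 7 of 12 members and rose in 3 (median log2 fold -2.18, or -1.44 without day 0 replicate A). Epx, the eosinophil peroxidase, went from 4930.4 and 1937 to 117 and 164 CPM (log2 fold -4.61, SE 0.35, edgeR adjusted p = 2.2e-07). Its day 0 libraries differed from each other by more than 2-fold, yet the lower one still stood far above both day 4 libraries. Prg2, the major basic protein of eosinophil granules, went from 195 and 108 to 35.1 and 23.7 CPM (log2 fold -2.37) and Prg3, its homologue, from 44.9 and 15.3 to 7.83 and 7.5 CPM (log2 fold -1.99, or -1.0 without day 0 replicate A, and not called with the 4 libraries alone, edgeR adjusted p = 0.17). Ear1 and Ear6 encode eosinophil ribonucleases of a family of near-identical copies whose reads may be shared. Ear1 went from 26.2 and 15.6 to 1.5 and 1.29 CPM (log2 fold -3.91) and Ear6 from 5.98 and 2.43 to 0.538 and 0.605 CPM (log2 fold -2.92), and Rnase12, a ribonuclease outside the list, from 46.1 and 25.4 to 0.883 and 0.807 CPM (log2 fold -5.40). The 3 other called markers rose. Siglecf, an inhibitory lectin of eosinophils, went from 3.7 and 4.43 to 33.1 and 35.6 CPM (log2 fold 3.09, SE 0.18, edgeR adjusted p = 2.5e-09). Alox15, a lipoxygenase of eosinophils and macrophages, went from 0.652 and 0.0738 to 9.14 and 11.2 CPM (log2 fold 4.63, or 6.99 without day 0 replicate A, against the 1 read of replicate B). Adgre4, an adhesion receptor of myeloid cells, had 0 reads over both day 0 libraries and 21 over both day 4 libraries and was at least 4.4-fold higher against the limit that 3 reads over the day 0 libraries set. The interleukin-5 receptor chain Il5ra stood at 17.8 and 11.9 CPM at day 0 and 14.4 and 14.6 CPM at day 4 and was not called. The summed level of the 12 genes was 5285 and 2124 CPM at day 0 and 226 and 267 CPM at day 4. Epx made up most of this sum in each of the 4 libraries.

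Basophil and mast cell markers fell in 8 of 9 members (median log2 fold -2.72). Cpa3, the carboxypeptidase of mast cell granules, went from 1978 and 1679 to 256 and 299 CPM (log2 fold -2.72, SE 0.15, edgeR adjusted p = 1.7e-09). Mcpt8, a basophil protease, went from 19.9 and 17.6 to 4.19 and 3.91 CPM (log2 fold -2.21), and Prss34, another basophil protease, from 3.42 and 2.36 to 0.23 and 0.242 CPM (log2 fold -3.60). Kit was the member that was not called. Summed over the list, the level was 3032 and 2447 CPM at day 0 and 680.0 and 794 CPM at day 4.

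Eosinophil markers were higher again at the later days of doxycycline. The day 8 and day 12 comparisons share the day 4 libraries with the day 4 against day 0 comparison, so their values are given side by side and no overlap is counted. Against day 4, 1903 of all genes were called at day 8 (13.9%), with 926 higher (6.78%) and 977 lower (7.16%), and 3687 at day 12 (27%), with 2006 higher (14.7%) and 1681 lower (12.3%). Without day 8 replicate B the day 8 count was 590, without day 8 replicate A 992, without day 4 replicate A 809 and without day 4 replicate B 1217. The day 12 count was 1427 without day 4 replicate A, 1710 without day 12 replicate A and 1726 without day 12 replicate B. All 12 eosinophil markers were higher than at day 4 at day 8 and again at day 12, with median log2 folds of 3.41 and 5.21, also with any 1 library of the compared days left out. Epx stood at 1682 and 1992 CPM at day 8 and 4704 and 5255 CPM at day 12 (log2 fold 5.14, SE 0.36, edgeR adjusted p = 8.8e-07). Prg2 stood at 1126 and 1170.2 CPM at day 8 and 3028 and 3414 CPM at day 12, far above its day 0 libraries of 195 and 108 CPM (log2 fold 6.77, SE 0.28, edgeR adjusted p = 4e-09 for day 12 against day 4). Ear1 reached 88.9 and 91.7 CPM, Ear6 35.8 and 45 CPM and Prg3 276 and 321 CPM at day 12. Rnase12 was at 5.74 and 4.78 CPM at day 8 and 14.4 and 18.3 CPM at day 12, below its day 0 libraries. Adgre4 and Alox15, which had risen at day 4, rose further, to 34.7 and 36.9 CPM and 313 and 314 CPM at day 12. Siglecf was at 58.6 and 61.1 and then 80.3 and 78.2 CPM, and Gata1 at 21.5 and 22.1 and then 42.4 and 46.9 CPM.

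Of the 9 basophil and mast cell markers, 5 were above day 4 at day 8 and 7 at day 12. Cpa3 returned to 696 and 722 CPM and then 1183 and 1184 CPM. Prss34 reached 5.75 and 7.11 CPM at day 12, and Mcpt8 26.8 and 26 CPM. Among neutrophil genes 9 of 17 were below day 4 at day 8 and 9 at day 12, where 5 were below it without day 12 replicate B. Camp had 11.8 and 8.48 CPM at day 8 and 1.19 and 1.24 CPM at day 12 (log2 fold -5.25, SE 0.32, edgeR adjusted p = 5.9e-08). S100a8 had 182 and 139 CPM and then 47.4 and 37.7 CPM (log2 fold -4.26 for day 12 against day 4), while S100a9 had 545 and 469.8 CPM and then 367 and 367 CPM. Lcn2 fell less, to 189.9 and 202 CPM and then 177 and 169.8 CPM. Ltf, Padi4 and Retnlg were above day 4 at day 12, Padi4 at 140 and 144 CPM. Azurophil granule genes were below day 4 in 6 of 10 members at day 12, among them Elane at 11.6 and 10.7 CPM (log2 fold -3.41) and Mpo at 32.2 and 28.4 CPM.

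**Figure D3:**
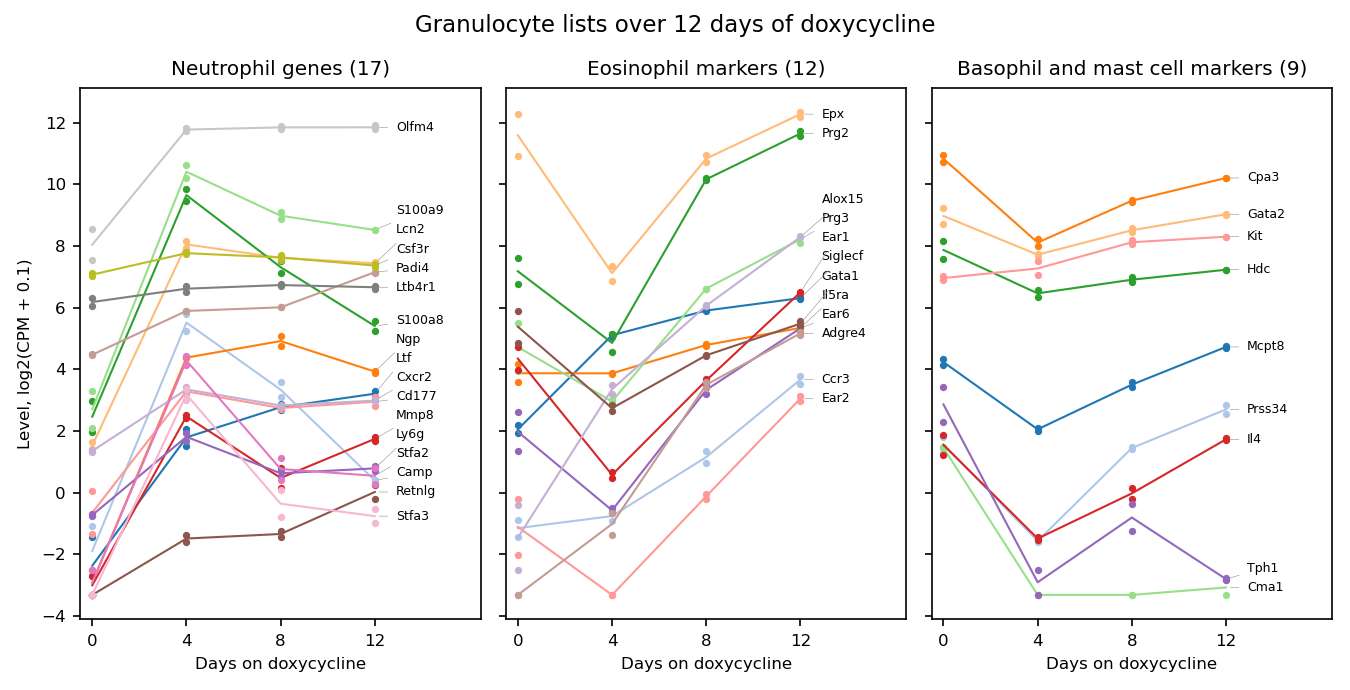
Level as log2(CPM + 0.1) against days on doxycycline for every measured member of 3 lists, 1 colour a gene, with a point for each library and a line through the mean of each pair. All 17 neutrophil genes were higher at day 4 than at day 0, while 7 of 12 eosinophil and 8 of 9 basophil and mast cell markers were lower, and all 12 eosinophil markers stood above day 4 at day 12.

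Macrophage and monocyte markers rose in 8 of 13 measured members and fell in 4 (median log2 fold 0.88). Fcgr1, the high-affinity receptor for IgG, had 1 read over both day 0 libraries and 405 over both day 4 libraries, a ratio of 255 with an exact 95% counting interval from 45.4 to 10079.7. Adgre1, which encodes the marker F4/80, went from 4.13 and 4.28 to 15.4 and 20.7 CPM (log2 fold 2.10), and Cd14, a co-receptor for lipopolysaccharide, from 0.326 and 0.147 to 1.04 and 0.968 CPM (log2 fold 1.98). The members that fell were Cd163, Apoe, Cx3cr1 and Ly6c2 (log2 fold -3.23, -2.73, -2.73 and -0.78); like Adgre1 and Cd14 they were named after their values were seen. The summed level of the list was 1537 and 1642 CPM at day 0 and 2274 and 2186 CPM at day 4. Of that sum, Lyz2 alone made up 47.5 and 64.7 CPM at day 0 and 1219 and 1037 CPM at day 4.

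Lists of phagocyte functions held more genes that rose than genes that fell. All 7 measured genes of the phagocyte NADPH oxidase, the enzyme complex that makes superoxide, rose (median log2 fold 1.09). After Ncf1, the next lowest p-value was that of the GTPase Rac2, from 282 and 268 to 654 and 754 CPM (log2 fold 1.36, SE 0.11, edgeR adjusted p = 1e-07). The catalytic subunit gene Cybb was not analysed here. Of 31 genes of Fc receptors and of signalling through the activation motif ITAM, 27 rose and 2 fell (median log2 fold 1.61). Tyrobp, the adaptor DAP12 that carries the signal of Clec5a, went from 5.6 and 3.76 to 233 and 180.1 CPM (log2 fold 5.44, SE 0.17, edgeR adjusted p = 1e-11). The members that fell were Clec7a, the beta-glucan receptor, from 120.2 and 112 to 29.8 and 27.4 CPM (log2 fold -2.02), and Lat2, an adaptor, from 19.8 and 16.7 to 8.1 and 7.18 CPM (log2 fold -1.26), both named after their values were seen. Clec5a was the gene with the lowest adjusted p of this list, and at day 8 and day 12 it was back to 50 and 54.1 and 54.9 and 49.4 CPM, below day 4 (log2 fold -1.81, SE 0.12, edgeR adjusted p = 5.6e-07 for day 8) and still far above day 0.

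Toll-like receptor and interleukin-1 pathway genes rose in 18 of 24 members and fell in 1, the inhibitor Tnfaip3 (median log2 fold 1.10). Tlr4, the receptor of lipopolysaccharide, went from 9.4 and 13.5 to 52.9 and 55 CPM (log2 fold 2.25, SE 0.20, edgeR adjusted p = 2e-07). Tlr6, a receptor of bacterial lipopeptides, went from 7.5 and 7.75 to 22.3 and 23.6 CPM (log2 fold 1.59), and Il1rn, the antagonist of the interleukin-1 receptor, from 3.42 and 3.69 to 15.8 and 19.1 CPM (log2 fold 2.30). Tlr4 was back at 13.3 and 11 CPM at day 8 and 11.8 and 10.5 CPM at day 12, within the range of its day 0 libraries (log2 fold -2.15, SE 0.19, edgeR adjusted p = 7.9e-06 for day 8 against day 4). Il1b, the inflammatory cytokine interleukin-1 beta, had 0 reads over both day 0 libraries and 154 over both day 4 libraries and was at least 32.3-fold higher, and it was named after its values were seen. Of 24 members 8 were below day 4 at day 8, or 5 without day 8 replicate A or B, and 8 at day 12, or 5 without day 12 replicate B. Complement genes and receptors rose in 7 of 11 members. C3, the central complement component, went from 6.47 and 12.2 to 252 and 336 CPM (log2 fold 5.0). Cd55, which protects cells from complement, was the member that fell, from 78.8 and 42.3 to 3.61 and 3.39 CPM (log2 fold -4.12, SE 0.25, edgeR adjusted p = 5.6e-09), and it was back at 45 and 46.6 CPM at day 12.

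Integrin chains rose in 10 of 15 members and fell in 3 (median log2 fold 0.94). Those that fell were Itga9, Itgae and Itga2b, named after their values were seen; without day 0 replicate A none of the 3 kept its call, and without day 4 replicate A 1 member fell. Itgb2, the CD18 chain that pairs with Cd11b, was abundant at day 0 already and went from 378 and 316 to 1311 and 1646 CPM (log2 fold 2.09, SE 0.14, edgeR adjusted p = 1.6e-08). Itgav, the alpha V chain, went from 18.6 and 19.8 to 67.8 and 81.4 CPM (log2 fold 1.96). Of receptors for migration, 10 of 16 rose and 2 fell, Cmklr1 and Cx3cr1. Ccr1, a chemokine receptor, went from 0.598 and 1.03 to 35.5 and 26.6 CPM (log2 fold 5.29, SE 0.25, edgeR adjusted p = 5.4e-10), and Ptafr, the receptor of platelet-activating factor, from 1.3 and 2.29 to 17.5 and 17.5 CPM (log2 fold 3.32). Genes of the actin cytoskeleton rose in 35 of 39 members and fell in 2, Tmsb10 and Actg1 (median log2 fold 0.98; 1 fell without day 4 replicate A). Coro1a, an actin regulator of leukocytes, went from 99 and 81.3 to 861 and 831 CPM (log2 fold 3.23, SE 0.13, edgeR adjusted p = 8.1e-11), and Fmnl1, a formin, from 89.5 and 75.5 to 208 and 218 CPM (log2 fold 1.37). Lsp1, an actin-binding protein of leukocytes, had 1 read over both day 0 libraries and 649 over both day 4 libraries, a ratio of 408 with an exact 95% counting interval from 73 to 16138.

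Lysosomal genes rose in 33 of 50 members and fell in 4, Acp5, Ctsh, Cd63 and Gla (median log2 fold 0.57; 2 fell without day 4 replicate B). The acid ceramidase Asah1 went from 157 and 170.3 to 529.6 and 533 CPM (log2 fold 1.70, SE 0.10, edgeR adjusted p = 2.5e-09). Psap, the precursor of the saposins, went from 361 and 319 to 942 and 1212 CPM (log2 fold 1.67). Interferon-stimulated genes rose in 29 of 35 members, and the 1 that fell was Bst2, the membrane tether tetherin (median log2 fold 0.88). Ddx58, which encodes the RNA sensor RIG-I, went from 32.2 and 25.7 to 90 and 93.8 CPM (log2 fold 1.66), and Zbp1, a sensor of nucleic acids, from 1.58 and 2.14 to 7.95 and 7.86 CPM (log2 fold 2.11). Ddx58 stood at 95.3 and 95.1 CPM at day 12 and was not called against day 4 (edgeR adjusted p = 0.8).

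MHC class II genes rose in 7 of 9 members, in 3 without day 0 replicate B and in 4 without day 0 replicate A or without day 4 replicate B (median log2 fold 1.52). H2-DMb1 and H2-DMa encode a chaperone that loads peptides on class II molecules, and the H2 genes hold near copies that can share reads. H2-DMb1 went from 19.6 and 19.2 to 46.3 and 46.4 CPM (log2 fold 1.26, SE 0.14, edgeR adjusted p = 2.4e-06), H2-DMa from 2.56 and 2.06 to 6.49 and 7.02 CPM (log2 fold 1.53) and H2-Oa, its modulator, from 19.5 and 12.6 to 37 and 40.7 CPM (log2 fold 1.26). Summed over the list, the level stayed low, 49.7 and 41.5 CPM at day 0 and 98.7 and 103 CPM at day 4. MHC class I and processing genes rose in 11 of 17 members and fell in 2, Psmb10 and Tap2 (median log2 fold 0.52). B2m, the light chain of class I molecules, went from 324 and 357 to 734 and 798 CPM (log2 fold 1.17, SE 0.13, edgeR adjusted p = 2.9e-06). H2-D1, a class I heavy chain, went from 419 and 397 to 955 and 1032 CPM (log2 fold 1.28), and Tapbp, which loads peptides on class I, from 98.9 and 112 to 244 and 324 CPM (log2 fold 1.43). These rose again after day 4: 12 of 17 members were above day 4 at day 8 and 14 at day 12, with B2m at 1370.5 and 1307 CPM at day 12 (log2 fold 0.81, SE 0.13, edgeR adjusted p = 0.0005).

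**Figure D4:**
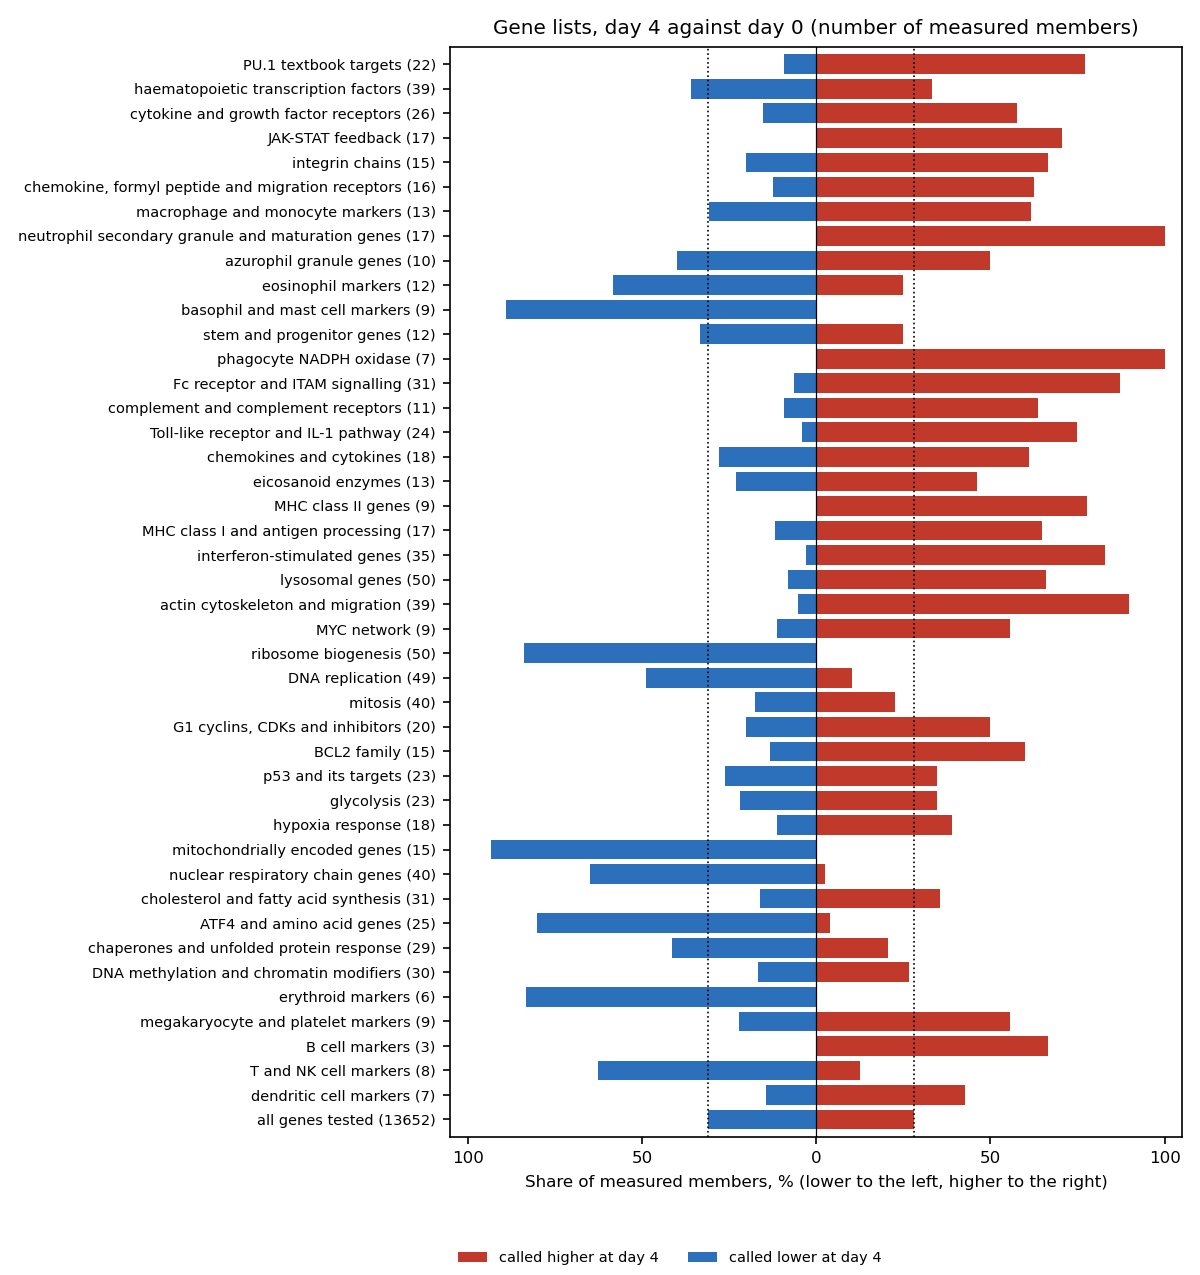
Share of the measured members of each of 43 gene lists called higher (red, to the right) or lower (blue, to the left) at day 4 against day 0, in percent, with the number of measured members in brackets and all 13652 genes in the lowest bar. Dotted lines mark the shares over all genes, 28.2% higher and 31% lower. Neutrophil and NADPH oxidase genes reach 100% on the higher side, and mitochondrially encoded, basophil and ribosome biogenesis genes lie furthest to the lower side.

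Secreted cytokines and lipid mediator enzymes changed in both directions. Of 18 chemokines and cytokines, 11 rose and 5 fell, Il6, Ccl17, Csf1, Tnfsf13b and Il12a (3 fell without day 4 replicate B or without day 0 replicate A). Spp1, the secreted protein osteopontin, went from 50.7 and 71.2 to 384 and 383 CPM (log2 fold 2.66, SE 0.16, edgeR adjusted p = 5.4e-09), and Tnfsf14, a cytokine of the tumour necrosis factor family, from 4.46 and 3.47 to 21.9 and 22.8 CPM (log2 fold 2.48). Of 13 eicosanoid enzymes 6 rose and 3 fell, Ptgds, Ptgs2 and Ptges2. Alox5ap, the activator of leukotriene synthesis, went from 9.73 and 17.7 to 214 and 211 CPM (log2 fold 3.97, SE 0.19, edgeR adjusted p = 6.3e-10), and Ptgs1, the cyclooxygenase 1, from 58.9 and 56.4 to 178 and 186 CPM (log2 fold 1.66). Ptgds, a prostaglandin D synthase, fell from 176 and 314 to 35.6 and 33.1 CPM (log2 fold -2.83) and fell further, to 4.19 and 4.14 CPM at day 8.

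Stem and progenitor genes had no common direction: 3 of 12 rose (25%, beside 28.2% of all genes) and 4 fell (33.3%, beside 31%). The median log2 fold of -0.05 changed sign between settings, from -0.19 to 0.17. Cd34, a surface mucin of progenitors and mast cells, went from 24.6 and 30 to 149 and 172 CPM (log2 fold 2.56, SE 0.13, edgeR adjusted p = 8.7e-10). Angpt1, a ligand of the receptor Tie2, went from 62 and 43.1 to 5.68 and 6.86 CPM (log2 fold -3.07) and was back at 48.7 and 52.1 CPM at day 12. Eng and Procr rose and Gata2 and Myb fell with Muc13 and Angpt1 (log2 fold 3.38 for Eng and 2.52 for Procr, named after their values were seen). Without day 4 replicate A, 5 members rose.

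Myc and its network moved apart. Myc, the growth-promoting factor that dimerises with Max, went from 334 and 343 to 95 and 92 CPM (log2 fold -1.86, SE 0.10, edgeR adjusted p = 1e-09). Mxd1, a Max partner that opposes Myc in maturing cells, went from 34.1 and 33 to 149 and 153 CPM (log2 fold 2.17, SE 0.11, edgeR adjusted p = 1.1e-09). Both pairs of libraries were tight, and the Myc and Mxd1 changes were in opposite directions. Mxi1 and Mxd3, which act like Mxd1, rose to a lesser degree (log2 fold 0.80 and 0.87), as did Max (0.48) and Mxd4 (0.42), of which Mxd3 lost its call without day 0 replicate A and Mxd4 without day 0 replicate B. Mnt, Mlx and Mga were not called (log2 fold -0.05, -0.08 and 0.03). Myc rose again in part, to 137 and 139.7 CPM at day 8 and 186 and 180 CPM at day 12 (log2 fold 0.97, SE 0.09, edgeR adjusted p = 5.2e-06 for day 12 against day 4).

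Ribosome biogenesis genes fell in 42 of 50 members (median log2 fold -1.02), and the other 8 were not called. Polr1b, a subunit of RNA polymerase I, went from 102 and 88.4 to 17.9 and 18.6 CPM (log2 fold -2.38, SE 0.11, edgeR adjusted p = 4.7e-10). Gnl3, the nucleolar protein nucleostemin, went from 151 and 160.4 to 31.2 and 27.8 CPM (log2 fold -2.40), and Nle1, a factor of large subunit assembly, from 72 and 71 to 16.9 and 15.7 CPM (log2 fold -2.13). In each of the 3 both day 4 libraries lay far below both day 0 libraries. Against day 4, 28 members were higher at day 8, or 8 without day 8 replicate B and 10 without day 4 replicate A, and 40 at day 12. Gnl3 came back to 52.9 and 59.9 CPM and Polr1b to 29.3 and 29 CPM at day 12, short of their day 0 levels.

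Genes of amino acid synthesis under the stress factor ATF4 fell in 20 of 25 members (median log2 fold -0.74), and the 1 that rose was Cbs, an enzyme of cysteine synthesis, with 0 reads over both day 0 libraries and 26 over both day 4 libraries, which is at least 5.45-fold higher. By p-value the first members were enzymes of serine metabolism. Psat1 went from 557 and 713 to 100.3 and 99.3 CPM (log2 fold -2.67, SE 0.12, edgeR adjusted p = 2.8e-10), Phgdh from 70.3 and 85.9 to 12.8 and 13.6 CPM (log2 fold -2.57) and the mitochondrial serine hydroxymethyltransferase Shmt2 from 414 and 467 to 151 and 162 CPM (log2 fold -1.50). Chaperones and genes of the unfolded protein response split, with 12 of 29 lower and 6 higher, or 3 higher without day 4 replicate B. Hspe1, a mitochondrial chaperonin, went from 84.8 and 89.8 to 28.7 and 24.2 CPM (log2 fold -1.72), Cct3, a subunit of the cytosolic chaperonin, from 479 and 474 to 229 and 236 CPM (log2 fold -1.03), and Hsp90ab1, a constitutive HSP90, from 2280.2 and 2497 to 1015 and 1215 CPM (log2 fold -1.10, SE 0.12, edgeR adjusted p = 1.6e-06). Relative to day 4, 18 chaperone genes were higher at day 12, or 9 without day 4 replicate A.

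Mitochondrial genes fell in both genomes. Of 15 mitochondrially encoded genes 14 fell (median log2 fold -1.52), and ND3 was not called (log2 fold -2.01). COX1, a subunit of complex IV, went from 29858 and 25276 to 9991 and 9958 CPM (log2 fold -1.47, SE 0.14, edgeR adjusted p = 5.2e-07), and ND1, a subunit of complex I, from 8197 and 7041 to 2469 and 2457 CPM (log2 fold -1.63). The ribosomal RNA genes mt-Rnr1 and mt-Rnr2 had log2 folds of -2.85 and -1.98. Nuclear copies of the mitochondrial genome can share reads with these genes. Of 40 nuclear genes of the respiratory chain 26 fell and 1, Sdha, rose (median log2 fold -0.42). Without day 4 replicate B 10 fell and without day 0 replicate A 14, and Sdha lost its call without day 4 replicate B or day 0 replicate B. Cycs, the electron carrier cytochrome c, went from 12.7 and 19 to 6.45 and 5.28 CPM (log2 fold -1.42, SE 0.22, edgeR adjusted p = 4.7e-05). Uqcrq, of complex III, went from 216 and 185 to 95.8 and 72.3 CPM (log2 fold -1.25), and Ndufa9, of complex I, from 86.2 and 91.1 to 58.7 and 56.2 CPM (log2 fold -0.62).

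**Figure D5:**
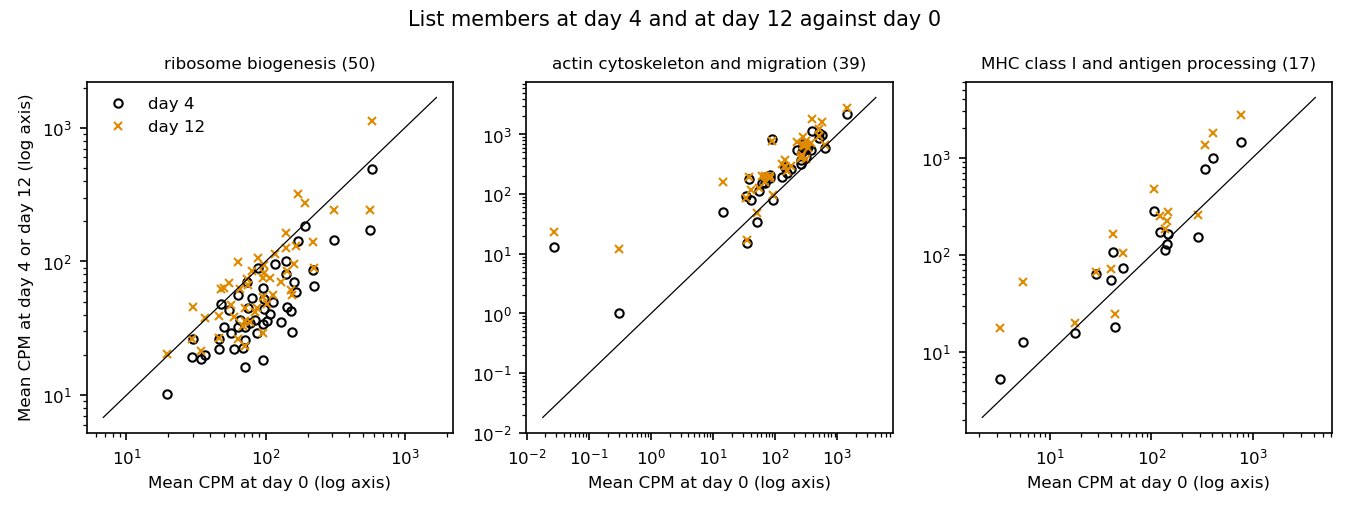
Mean CPM at day 4 (circles) and at day 12 (crosses) against mean CPM at day 0, on log axes, for the members of 3 lists, with a line where the levels are equal. Ribosome biogenesis genes lie below the line at day 4 and closer to it at day 12, and actin and MHC class I genes lie mostly above it on both days.

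Genes of DNA replication fell in 24 of 49 members and rose in 5 (median log2 fold -0.29). Without day 4 replicate A the median was -0.19, with fewer members called lower and more called higher. Orc1, the origin recognition subunit, went from 46.2 and 42.4 to 15.5 and 15.6 CPM (log2 fold -1.51, SE 0.11, edgeR adjusted p = 2.6e-08). Mcm10 and Cdt1, which load and start the replicative helicase, had log2 folds of -1.06 and -1.09. Ccne1 and Ccne2, the E cyclins of S phase entry, were among those that rose (1.51 and 1.0), with E2f1, Rpa1 and Mcm3, all 5 named after their values were seen; E2f1 lost its call without day 4 replicate B or day 0 replicate B (log2 fold 0.15). Mitosis genes had a median of 0.04 (0.10 without day 4 replicate A). Of 40 members 9 rose (22.5%, beside 28.2% of all genes) and 7 fell (17.5%, beside 31%). Without day 4 replicate A 3 fell, without day 4 replicate B 5 rose, without day 0 replicate A 4 fell, and without day 0 replicate B 4 rose and 4 fell. Cdc25b, a phosphatase of mitotic entry, went from 22.5 and 20.3 to 67.9 and 67.5 CPM (log2 fold 1.66, SE 0.11, edgeR adjusted p = 7.8e-09). Prc1, a spindle protein, and Anln, a protein of the cleavage furrow, rose by less than 2-fold (0.88 and 0.86).

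Among G1 cyclins, kinases and inhibitors 10 of 20 rose and 4 fell, Cdkn1c, Cdkn2b, Cdk4 and Cdkn2a, or 2 without either day 4 library. Without day 0 replicate A Cdkn2a and Cdkn2b lost their calls (log2 fold -0.22 and -0.56). Rb1, the retinoblastoma protein that restrains S phase entry, went from 37.2 and 33 to 118 and 132 CPM (log2 fold 1.83, SE 0.15, edgeR adjusted p = 1e-07). Cdk4, the kinase that inactivates it, went from 461 and 527 to 229.5 and 218 CPM (log2 fold -1.14, SE 0.11, edgeR adjusted p = 5.3e-07). Ccnd3, a D cyclin, rose from 174 and 147 to 311 and 372 CPM (log2 fold 1.08). In the BCL2 family, which governs mitochondrial cell death, 9 of 15 rose and 2 fell, Bcl2 and Bid. Bcl2, the survival gene, went from 90.9 and 78.6 to 29.8 and 30.9 CPM (log2 fold -1.48, SE 0.14, edgeR adjusted p = 4.2e-07), while the death-promoting Pmaip1 went from 19.9 and 18.7 to 43.9 and 47 CPM (log2 fold 1.24) and Bcl2l11, known as BIM, from 14.8 and 13.3 to 34.6 and 38.5 CPM (log2 fold 1.37). Survival genes also rose: Mcl1 and Bcl2l1 had log2 folds of 0.67 and 0.92, named after their values were seen. Of 23 genes of the p53 pathway 8 rose (34.8%, beside 28.2% of all genes) and 6 fell (26.1%, beside 31%). Trp53inp1 went from 39.3 and 41.1 to 129 and 132 CPM (log2 fold 1.70). Phlda3, an inhibitor of AKT signalling, went from 37.4 and 50.8 to 15.1 and 14.4 CPM (log2 fold -1.58).

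Metabolic lists were mixed. Of 23 glycolysis genes 8 rose (34.8%, beside 28.2% of all genes) and 5 fell (21.7%, beside 31%). Those that fell were Eno2, Gapdh, Pdk1, Ldha and Pgk1, and the median log2 fold of 0.03 ran from -0.06 to 0.24 between settings. Slc2a3, a high-affinity glucose transporter, went from 6.25 and 6.79 to 36.5 and 41.2 CPM (log2 fold 2.58, SE 0.13, edgeR adjusted p = 6.6e-10), and Hk3, the hexokinase of myeloid cells, from 3.21 and 4.5 to 42.5 and 41.2 CPM (log2 fold 3.46). Genes of cholesterol and fatty acid synthesis rose in 11 of 31 members (35.5%, beside 28.2% of all genes) and fell in 5 (16.1%, beside 31%). Among those that fell were Pmvk, Lss and Scd2, named after their values were seen. Without day 0 replicate A 5 rose, without day 4 replicate B 6 rose and 2 fell, and 3 fell without day 4 replicate A or day 0 replicate B. Srebf2, the regulator of the pathway, went from 261 and 277 to 412 and 523 CPM (log2 fold 0.80, SE 0.13, edgeR adjusted p = 7.9e-05). At day 8, 21 of 31 were below day 4, or 13 without day 8 replicate A. Scd1, the desaturase of fatty acids, stood at 88.9 and 121 CPM at day 0 and 107 and 149 CPM at day 4, was not called between these days in the full fit but was without day 4 replicate A (log2 fold 0.57) and with the 4 libraries alone (0.33), and then dropped to 7.97 and 12.6 CPM at day 8 (log2 fold -3.63, SE 0.22, edgeR adjusted p = 5.5e-07) before 128 and 128 CPM at day 12. Among chromatin genes 8 of 30 rose (26.7%, beside 28.2% of all genes) and 5 fell (16.7%, beside 31%). Those that fell were Hmga2, Tet1, Hmga1, Dnmt3b and Asxl1. Hmga2, a chromatin protein of fetal and transformed cells, went from 35.3 and 42 to 4.72 and 5.73 CPM (log2 fold -2.88, SE 0.18, edgeR adjusted p = 7.8e-09), and Ezh1, a methyltransferase of Polycomb complex 2, from 27.2 and 24.9 to 58 and 59 CPM (log2 fold 1.17).

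Markers of other lineages differed in their summed levels, which at day 0 ran from 1.63 CPM for B cells to 602 CPM for megakaryocytes and platelets. Of 16 erythroid markers 6 had a row and 5 fell, and their sum was 486 and 459 CPM at day 0 and 345 and 369.9 CPM at day 4. Most of this was Tfrc, the transferrin receptor of dividing cells, which was not called. Klf1, the erythroid Krüppel-like factor, went from 4.78 and 4.35 to 1.27 and 1.13 CPM, and the globin genes were not analysed here. Megakaryocyte and platelet markers summed to 602 and 541 CPM at day 0 and 504 and 516 CPM at day 4. The factor Nfe2, which is shared with the myeloid lineage and was not called in the full fit (log2 fold -0.44 and called without day 0 replicate A, -0.35 and called with a replicate block, -0.30 and called with the 4 libraries alone), made up 294 and 339.5 CPM at day 0 and 259 and 242 CPM at day 4 of that sum. In that list 5 of 9 rose, among them Itgb3, the beta 3 integrin chain, from 38.7 and 34.9 to 102 and 126 CPM (log2 fold 1.63), and Gp9, a platelet glycoprotein, with 1 read over both day 0 libraries and 147 over both day 4 libraries, a ratio of 92.4 with an exact 95% counting interval from 16.3 to 3674. Of 11 B cell markers 3 had a row, 2 rose (1 without day 0 replicate A), and the 3 summed to 1.63 and 1.84 CPM at day 0 and 3.15 and 3.31 CPM at day 4. T and NK cell markers fell in 5 of 8 members and summed to 297 and 386 CPM at day 0 and 317 and 314 CPM at day 4. At day 0 most of that sum came from members not named here. Lck, the T cell kinase, went from 7.23 and 8.26 to 0.768 and 0.887 CPM (log2 fold -3.21) and Cd3g, a chain of the T cell receptor complex, from 19 and 11.7 to 4.34 and 3.83 CPM (log2 fold -1.92), while Prf1, the pore-forming protein perforin, went from 48.2 and 41 to 150.4 and 165 CPM (log2 fold 1.82). Dendritic cell markers rose in 3 of 7 members, and Itgax, which encodes CD11c, had 0 reads over both day 0 libraries and 28 over both day 4 libraries and was at least 5.87-fold higher. The part of cells of other types in the changes of the myeloid lists was not tested.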

How the data were processed

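The authors deposited whole-number read counts per Entrez gene with gene lengths, 1 file a library, per the file headers. The submitters' processing notes name featureCounts, limma, edgeR and mm10. The read aligner was not given in the sources used here. All genes of the files pass 0.5 CPM in 3 libraries or more, and genes below that are not analysed here. Of 13652 Entrez numbers 13216 were matched to symbols of GRCm38.

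Totals ran from 12962801 to 26509803 counts over the 16 libraries. They were fitted together with 1 mean per group in edgeR 4.0.16 (R 4.3.3, limma 3.58.1; TMM, quasi-likelihood F test, robust, 8 residual degrees of freedom, 2-sided, Benjamini-Hochberg over 13652 genes); filterByExpr removed 0 genes. The common biological coefficient of variation was 10.9%. The script was tested on simulated data. Alternatives were RLE factors, library size alone, no filter, a 1 CPM filter, DESeq2 1.42.0, limma-voom, the 4 compared libraries alone, a replicate block, each library left out and no mitochondrially encoded genes. List counts at days 8 and 12 under such settings were added after seeing the data.

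The comparison and its 43 gene lists were chosen with earlier results of these data known. Named were Spi1, Itgam, the 12 largest called rises and falls (mean of at least 10 CPM, libraries that do not overlap; 6 each for later days), up to 3 members of each list by p, all transcription factors, receptors and MYC network genes, and the 10 highest genes per length. Some genes that this rule names are not reported here. Members named to show which few of a list moved were chosen after their values were seen. Of 1057 list entries 912 had a row. Groups with 0 reads are given a limit of 3 reads, and 1 to 3 reads an exact 95% interval; both cover counting error only.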

Additional observations from a re-analysis of the deposited data

Results flagged for a closer look

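Day 8 and day 12 of doxycycline differed from day 4 by the edgeR test of the difference itself in 1903 and 3687 genes, and each of the following genes stood out as the largest rise or fall of its comparison among genes whose mean reached 10 CPM. Fosb, an immediate-early partner of Jun proteins, had a log2 fold of 5.52 for day 8 against day 4, with 1.8 and 0.565 CPM at day 4 and 19.9 and 89.8 CPM at day 8, and with the 4 libraries compared alone its adjusted p was 0.15. Scd1 had a log2 fold of -3.63 for day 8 against day 4 and was back at 128 and 128 CPM at day 12. Prg2 had a log2 fold of 6.77 and Camp one of -5.25 for day 12 against day 4. Of the same 4 genes, Prg2 and Fosb had fallen and Camp had risen between day 0 and day 4 (Fosb lost that call without day 4 replicate B), while Scd1 was not called there.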

How the results depend on the processing

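Between day 0 and day 4 the number of called genes ran from 6531 to 8420 over the 13 other settings, and no gene called in both changed direction. With RLE size factors 50.7% of the called genes were higher, against 47.6%. The log2 folds of Spi1 and Itgam kept their direction and their call in every setting. List medians were taken in 7 other settings, and those of 41 of 43 lists kept their sign in all of them. Against day 4 the number was 30 at day 8 and 31 at day 12. Against day 4, day 8 had 2888 called genes (1585 lower) with the 4 libraries compared alone, and 590 to 1217 with 1 library left out (260 to 670 higher, 330 to 547 lower). Day 12 had 5613 (2845 lower) with the 4 libraries alone, and 1427 to 3099 with 1 library left out (720 to 1754 higher, 682 to 1345 lower). By library size alone day 12 had 1272 genes higher and 2797 lower, or 31.3% higher against 54.4%, and the median of all genes moved from -0.01 to -0.14; for day 8 the share was 38.4% against 48.7%. A setting that leaves 1 library in a group assumes that it varies like the other groups. The cause of these shifts was not tested.

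No label pairs the letters A and B between days. With a replicate block 8283 genes were called at day 4, 2118 at day 8 and 3960 at day 12. The A minus B differences of day 0 and day 4 correlated at 0.0131 over genes, those of day 4 and day 8 at 0.167, and those of day 4 and day 12 at -0.0907.

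With 2 libraries a group, no group of this design can be tested for a library that stands apart. Depth limits the genes with few reads at day 0, whose folds have wide counting intervals. Cells were not separated by type, and protein was not measured.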

Other observations

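Ranked per length, in RPKM, the CPM of a gene over its deposited length in kilobases, the most abundant transcripts changed with the treatment. The mitochondrial COX1 ranked first on both days, at 17843 ± 2097 RPKM at day 0 and 6456 ± 15 at day 4 (SD, n = 2). S100a9 moved from rank 5896 to rank 4, from 14.3 ± 8.15 to 2824 ± 603 RPKM (SD, n = 2), above every nuclear gene with a symbol at day 4. Olfm4 moved from rank 366 to rank 6, S100a8 from 5825 to 7 and Cstdc5 from 7090 to 10. The ribosomal protein genes Rps15 and Rpl8 moved from ranks 9 and 10 to ranks 18 and 19, and fell with log2 folds of -1.22 and -1.20 (edgeR adjusted p = 0.00028 and 3.8e-05). Only days 0 and 4 were ranked.

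Of 18 hypoxia response genes with a row, 7 rose and 2, Pdk1 and Kdm3a, fell (1 fell with any 1 library left out; median log2 fold 0.17, or 0.32 without day 4 replicate A, beside -0.05 over all genes). Epas1, which encodes the hypoxia factor HIF-2 alpha, went from 0.544 and 0.221 to 4.07 and 4.48 CPM (log2 fold 3.38, SE 0.36, edgeR adjusted p = 1.5e-06). Hif1a, its relative, went from 183 and 222 to 356 and 416 CPM (log2 fold 0.93). Aldoc, an aldolase of the glycolysis list, went from 25 and 21.4 to 64.8 and 68 CPM (log2 fold 1.51) and was back at 25.8 and 29.3 CPM at day 8.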
